A study of Mus musculus with 4 samples.

Results

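Fatty acid uptake and lipoprotein lipolysis were described through 10 listed genes, Lpl, Gpihbp1, Angptl4, Vldlr, Cd36, Slc27a1, Fabp3, Fabp4, Fabp5 and Acsl1, out of 19505 named genes on the array. They were taken by gene symbol from a list drawn up with earlier results of these data known. Of the 10, 9 had 1 named probe set each and all 9 passed the filter on low values. Acsl1 is unnamed here and has no value. The data were 4 mouse Clariom S arrays, which have 1 colour, from hearts of ICR (Jcl:ICR) mice. Each mouse had received PBS (phosphate-buffered saline) or a viral vector preparation for Tbx6, a T-box transcription factor of early mesoderm, at postnatal day 1, and hearts were taken 7 or 30 days later, with 1 array for each combination. All groups share the strain, the tissue and the age at injection. The protocol places the injection beneath the dorsal skin, whereas the treatment labels speak of the neonatal heart. The control was PBS, not an empty vector, and the sources used here do not give the number or sex of the hearts on each array.

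The heart runs largely on fatty acids, and it takes them from the blood by 2 routes that meet at the capillary wall. Lipoprotein lipase cuts triglyceride out of circulating lipoproteins while it is held on the endothelial surface by GPIHBP1, and ANGPTL4 inactivates it. The released fatty acids, with those carried on albumin, pass into endothelial and heart muscle cells with the help of CD36 and fatty acid transport proteins, are bound in the cytoplasm by small fatty acid binding proteins, and are activated to acyl-CoA by synthetases such as ACSL1. The postnatal heart moves from mainly carbohydrate toward mainly fatty acid fuel as it matures.

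Values are deposited log2 expression values, on which a difference of 1 is a doubling if the base is 2, which the labels do not write and the range of values gives. Precision is limited by the number of arrays, which carry no depth. Median log2 values over all genes lay between 5.30 and 5.34 on the 4 arrays. The highest of 23 background probe sets read 5.77 to 6.05, and a reading at or below it on its array is called at background. The highest value of the table was 19.9, which 7 genes reached on at least 1 array and 3 genes on all 4. Tbx6 itself was at background on all 4 arrays (3.57 to 4.14), so its probe set does not check the labels. Heart muscle markers were high on every array, with Tnnt2, cardiac troponin T, at 19.77 to 19.84.

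The first question was how the genes differed between 7 and 30 days. Lpl and Slc27a1 rose, Angptl4 and Fabp5 fell, and Gpihbp1, Vldlr, Cd36 and Fabp4 did not pass the test, a limma fit with terms for day and injection and a Benjamini-Hochberg adjusted p under 0.05. That is 2 genes up and 2 down among the 8 with a measurable difference, beside 14.2% of all 9753 tested genes up and 12.1% down. The median difference was -0.19 over these 8 genes and -0.02 over all tested genes. Fabp3 could not be judged, as explained with its values. The labels name no replicates within a group, so the pair of injections stands in for replication and the standard errors (SE) rest mostly on variance borrowed from other genes.

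**Figure D1:**
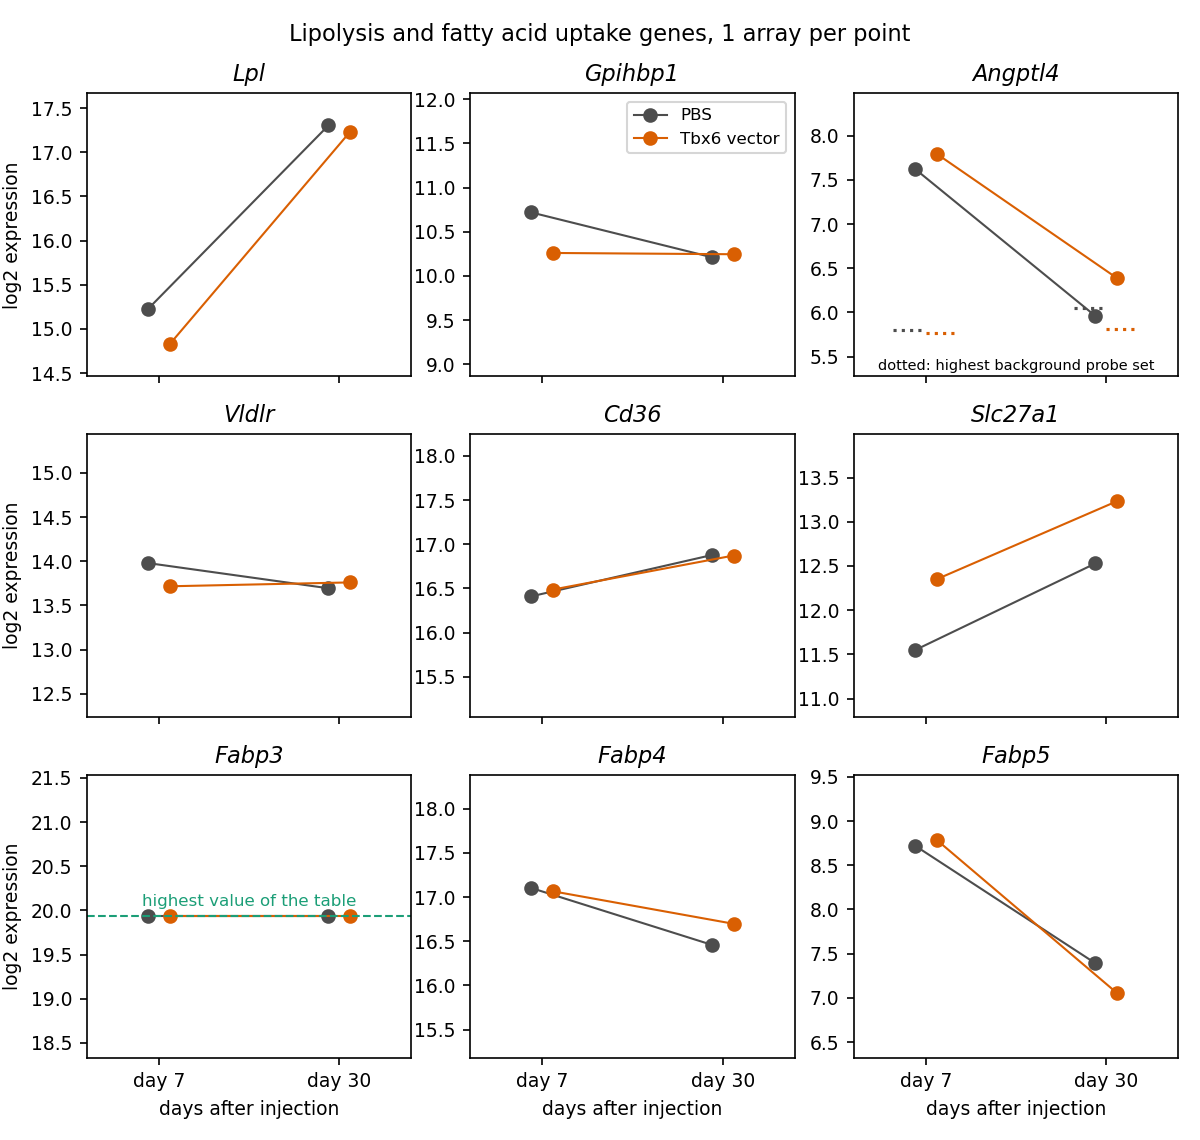
Log2 expression of the 9 genes with a probe set, by days after injection, with 1 array per point, PBS in grey and the Tbx6 vector in orange. Every panel spans the same number of log2 units, and the lines join arrays of different hearts. Lpl is higher at day 30 (17.30 and 17.23) than at day 7 (15.23 and 14.83), Angptl4 and Fabp5 are lower, and Fabp3 lies at the highest value of the table on all arrays.

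Lpl encodes lipoprotein lipase, the enzyme that releases fatty acids from lipoprotein triglyceride. At day 7 the PBS array read 15.23 and the Tbx6 array 14.83, and at day 30 they read 17.30 and 17.23. Both readings of day 30 lay above both of day 7, and the gap between days was several times that between injections. Lpl rose by 2.24 (SE 0.25, adjusted p of 0.000505 by limma), a 4.73-fold change. The log2 difference between days was 2.08 after PBS and 2.40 after Tbx6. In heart tissue, a change in the number of cells of a type and a change in RNA per cell cannot be told apart.

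Angptl4 encodes the circulating and locally made inhibitor that unfolds lipoprotein lipase. The day 7 arrays read 7.62 (PBS) and 7.80 (Tbx6), and at day 30 the PBS array was at background (5.96) and the Tbx6 array read 6.39. Both day 30 readings lay below both of day 7. Angptl4 fell by 1.54 on the deposited log2 values (SE 0.25, adjusted p of 0.00299 by limma), and raising the background reading to the highest background probe set leaves at least -1.49. The lipase gene and the gene of its inhibitor therefore differed in opposite directions between the days, in both injections.

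Gpihbp1 encodes the endothelial protein that carries the lipase across the capillary wall and holds it there. Its readings were 10.72 (PBS) and 10.26 (Tbx6) at day 7, then 10.21 (PBS) and 10.25 (Tbx6) at day 30. The PBS array of day 7 was the high one, and the other 3 lay close together. The difference between days of -0.26 (SE 0.26, adjusted p of 0.486 by limma) did not pass. With the injection term dropped it was -0.03 without the PBS array of day 7 and -0.49 without the Tbx6 array of day 7. Vldlr, a receptor that takes up triglyceride-rich lipoproteins, read 13.98 and 13.72 at day 7 and 13.69 and 13.76 at day 30, after PBS and Tbx6 in that order. The days overlapped, and the difference of -0.12 (SE 0.25, adjusted p of 0.754 by limma) did not pass.

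Slc27a1 encodes fatty acid transport protein 1, a membrane protein with acyl-CoA synthetase activity. The PBS arrays read 11.55 at day 7 and 12.53 at day 30, and the Tbx6 arrays 12.35 and 13.23. Within each injection it was higher at day 30, and within each day it was higher after Tbx6, so all 4 arrays stood in steps. Slc27a1 rose between days by 0.93 (SE 0.24, adjusted p of 0.0235 by limma), a 1.91-fold change. This call did not hold with the injection term dropped (adjusted p of 0.0897), nor, with that term dropped, without the PBS array of day 7 (0.53, 0.310), the PBS array of day 30 (1.28, 0.0721) or the Tbx6 array of day 30 (0.58, 0.364). Over its 9 alternatives the adjusted p ran from 0.00645 to 0.364.

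Cd36 encodes the membrane glycoprotein through which much of the heart's long-chain fatty acid enters. The PBS arrays read 16.41 at day 7 and 16.88 at day 30, and the Tbx6 arrays 16.49 and 16.87. The readings of a day lay within 0.08 of each other, and the days did not overlap. The difference of 0.43 (SE 0.24, adjusted p of 0.230 by limma) did not pass. It passed when the variance was allowed to follow the mean level (adjusted p of 0.0471), and the adjusted p ran from 0.0471 to 0.597 over the alternatives. Quantile normalisation moved the difference to 0.18.

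The 3 fatty acid binding proteins differed in what could be read. Fabp3, the heart muscle form, stood at the highest value of the table, 19.93, on all 4 arrays. Each of these readings is a lower bound of its level and no difference of Fabp3 was measurable here. Of the others with a value, none reached it. Fabp4, made by capillary endothelium and fat cells, read 17.10 and 16.46 on the PBS arrays of day 7 and day 30, and 17.06 and 16.70 on the Tbx6 arrays. Both day 30 readings were the lower ones, but the difference of -0.50 (SE 0.25, adjusted p of 0.166 by limma) did not pass. It passed with the variance following the mean (adjusted p of 0.0244), within a range of 0.0244 to 0.406 over the alternatives.

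Fabp5, the form named for skin and also made by endothelial cells and macrophages, read 8.72 (PBS) and 8.79 (Tbx6) at day 7. The day 30 arrays read 7.39 (PBS) and 7.05 (Tbx6), and every day 30 reading lay below every day 7 reading. Fabp5 fell by 1.53 (SE 0.25, adjusted p of 0.00341 by limma), a 2.89-fold change. Fabp5 and Fabp4 lie in a row of related genes on chromosome 3, with Pmp2 and Fabp9 between them and Fabp12 beyond (gene order from RefSeq, GRCm38.p6). These 3 neighbours were at background on all 4 arrays, so within the row a level was measured for Fabp4 and Fabp5 alone.

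**Figure D2:**
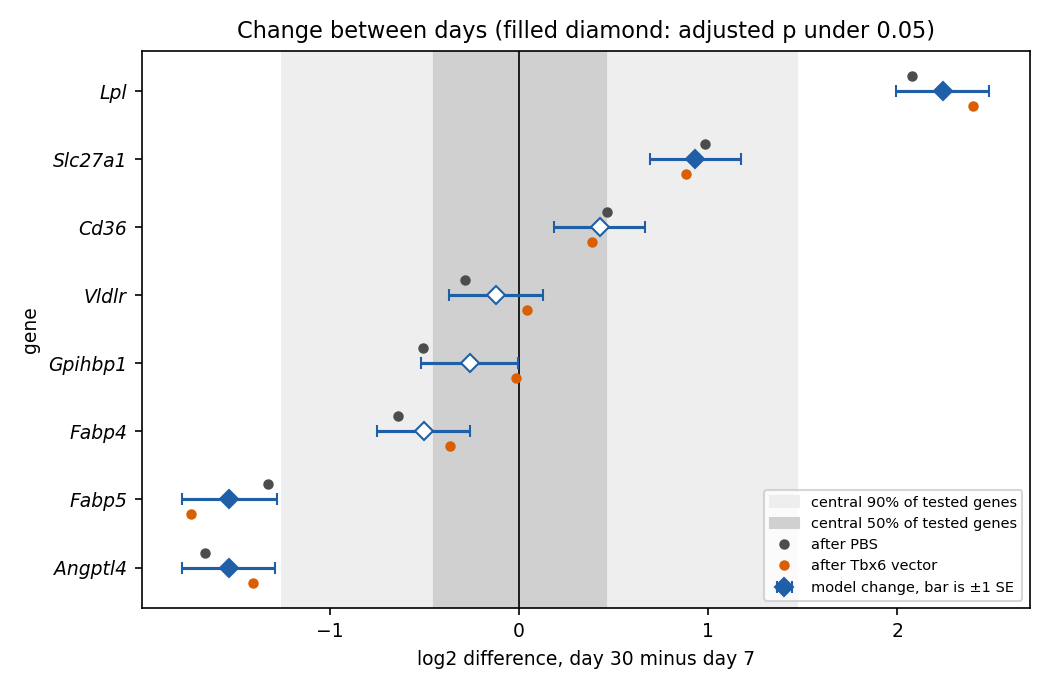
Log2 difference between day 30 and day 7 for the 8 genes with a measurable difference. Diamonds are the limma estimates with bars of ±1 SE, filled where the adjusted p was under 0.05, and dots are the differences within each injection as deposited. Grey bands hold the central 50% and 90% of the tested genes. Lpl (2.24) lies above the wider band and Angptl4 (-1.54) and Fabp5 (-1.53) lie below it, while Slc27a1 (0.93) lies inside it.

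The wider pathway was read from 6 further lists, with 77 genes listed, 67 measured and 44 tested. Of the 44, 12 rose and 8 fell between days, beside 14.2% and 12.1% of all tested genes, and the median difference was 0.05. The list of lipase control and lipoprotein genes held 10 tested genes, of which 1 rose and 3 fell (median 0.04). The riser was Lmf1, the chaperone of the endoplasmic reticulum that lipoprotein lipase needs to fold, at 8.47 and 8.23 at day 7 and 10.12 and 10.52 at day 30, after PBS and Tbx6 in that order. Lmf1 rose by 1.97 (SE 0.27, adjusted p of 0.00132 by limma), the same direction as Lpl. Hspg2, which encodes the heparan sulfate proteoglycan perlecan, fell by 1.45. Sdc1, which encodes the cell-surface proteoglycan syndecan 1, fell by 1.48 as deposited, and a bound from the background reading leaves -1.43. The proprotein convertase gene Pcsk5 fell by 0.98. Heparan sulfate binds lipoprotein lipase outside cells. Furin (0.03) and Pcsk6 (-0.18), whose products can cleave the lipase, did not pass. The apolipoprotein genes Apob, Apoc1, Apoc3 and Apoa5, with Angptl8, Lipg and Mttp, were at background on all arrays.

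Among 6 tested lipoprotein receptor genes 1 rose and 0 fell by limma's adjusted p, with a median of 0.07. At limma's unadjusted p under 0.05, 2 rose and 0 fell. The shares over all tested genes by adjusted p, 14.2% up and 12.1% down, stand beside these adjusted counts and those of the next list. Mylip, which encodes a ubiquitin ligase that marks the LDL and VLDL receptors for breakdown, rose by 1.33 (SE 0.25, adjusted p of 0.00591 by limma). Vldlr itself did not pass, as given above, and Lrp1 differed by -0.01 and Scarb1 by -0.21. Among 7 tested transport protein and synthetase genes 1 rose and 2 fell (median -0.18). Got2, a mitochondrial aminotransferase also described as a fatty acid binding protein of the plasma membrane, rose by 0.85, Cavin1, of the caveolar coat, fell by 1.25, and Dbi, the acyl-CoA binding protein gene, fell by 0.85. The relatives Slc27a2, Slc27a3, Slc27a5 and Slc27a6 were at background on all arrays, so Slc27a1 and, in part, Slc27a4 (5.71 to 6.52) were the transport protein genes with a level. Acsl4 (-0.48) and Acsl5 (0.01) did not pass. Of the 9 other measured binding protein genes Fabp7, the brain form, was the 1 tested, and it fell to background at day 30, with a difference of at least -0.83.

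The droplet list, genes that store and release triglyceride inside the cell, had 7 rising and 1 falling among 15 tested genes, beside 14.2% and 12.1% of all tested genes, with a median of 0.77 beside -0.02 over all tested genes. Dgat2, an enzyme of the last step of triglyceride synthesis, rose by 3.96 (SE 0.24, adjusted p of 4.18e-05 by limma). It went from 9.27 and 9.20 to 13.32 and 13.08, while Dgat1 was at background on all arrays. Agpat2 rose by 2.39. It read 10.09 (PBS) and 8.84 (Tbx6) at day 7, and 11.76 and 11.94 at day 30. Of 6 tested fat cell (adipocyte) markers 4 were at least 1.5-fold lower after Tbx6 at day 7, beside 8.41% of all tested genes. Adipoq (7.98 and 6.08) and Car3 (11.51 and 9.30) were among them, while Cidea was higher (8.45 and 8.98) and Retn was at background. At day 30 Adipoq differed by 2.33 and Car3 by 1.48, and Agpat2 by 0.18. The part of fat tissue in the droplet list's differences was not tested. Lpin1 rose by 2.29 and the droplet coat gene Plin3 by 2.15, and the others that rose were Plin4, Pnpla2, which encodes the first lipase of droplet breakdown, and Plin2. Mgll, the monoglyceride lipase gene, fell by 0.89. In the list on endothelial control, Vegfb, an endothelial growth factor studied for fatty acid uptake, rose by 1.83 and its receptor gene Flt1 by 1.94, while the apelin receptor gene Aplnr fell by 1.47. Meox2 (-0.52), which encodes a heart endothelial transcription factor that promotes fatty acid uptake, did not pass, and its partner Tcf15 was at background on all arrays.

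**Figure D3:**
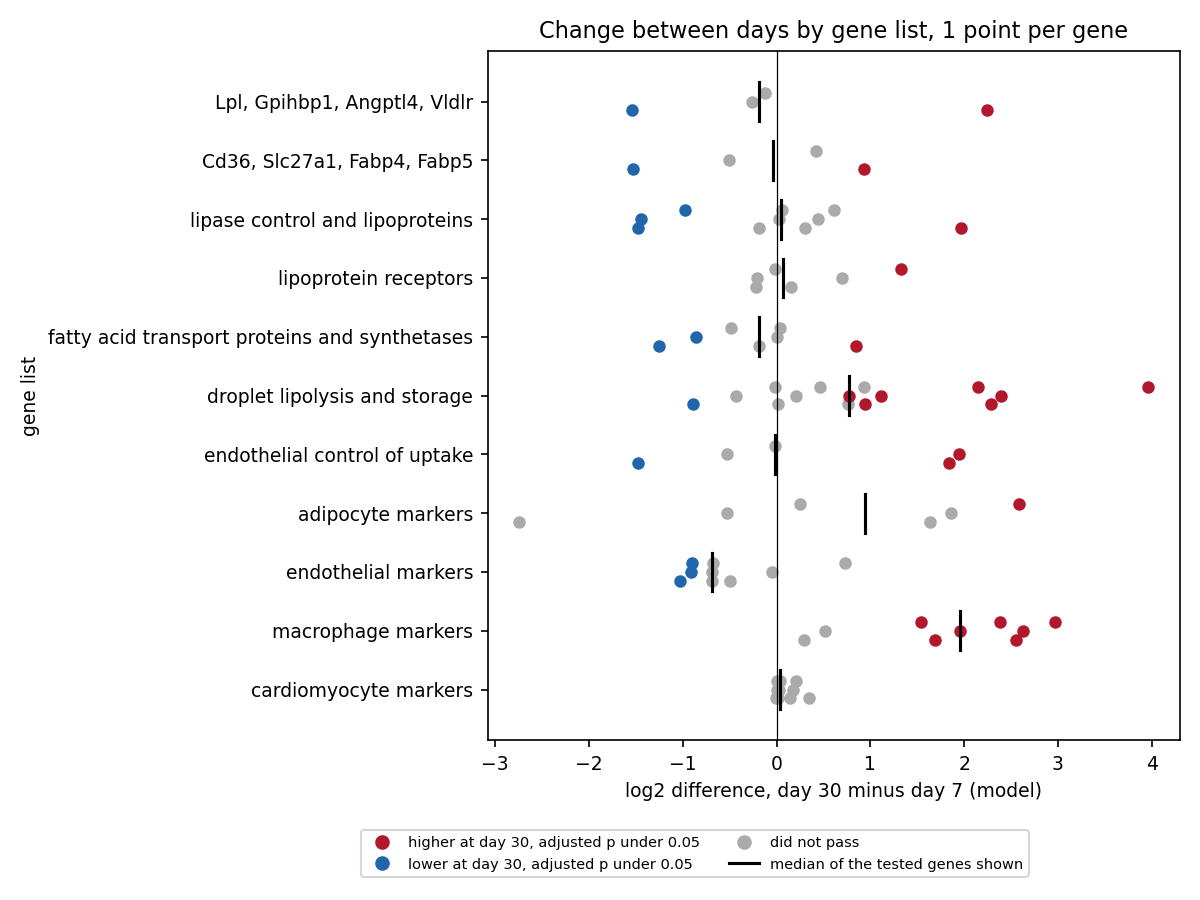
Log2 difference between day 30 and day 7 from limma for each tested gene, by list, with 1 point per gene. Red and blue mark an adjusted p under 0.05, grey did not pass, and the black bar is the median of the genes shown, Fabp3 left out. The lists of other binding proteins, airway and erythroid markers are not drawn. The droplet list has a median of 0.77, endothelial markers lie mostly below 0 and macrophage markers above it.

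Several of the genes are made by more than 1 cell type, so marker lists were read beside them. Of all tested genes 14.2% rose and 12.1% fell by limma's adjusted p, the shares to set beside the counts below. Gpihbp1 and much of Fabp4 come from endothelium. Of 9 tested endothelial markers 3 fell, Kdr (-1.03), Cdh5 (-0.91) and Robo4 (-0.90), and 0 rose by limma's adjusted p, where at an unadjusted p under 0.05 the counts were 6 lower and 1 higher, with a median of -0.68. Their summed level was 16.60 to 16.71 at day 7 and 15.72 to 15.83 at day 30 on the log2 scale. Macrophage markers, cells that also make Lpl and Fabp5, were higher, with 7 of 9 rising and a summed level of 11.49 to 11.57 at day 7 and 13.40 to 13.75 at day 30. Fabp5 fell and Lpl rose over the same interval. Of 10 heart muscle markers 0 passed by limma's adjusted p (0 also at an unadjusted p under 0.05). Several read near the highest value of the table. Actc1 (19.70) and Pln (19.83) gave the same reading on every array. Myl2 (19.82) did so on all but the Tbx6 array of day 7, and Actn2 (18.94) on all but the PBS array of day 30. For such markers the lack of a call does not show a steady level. Among those reading lower, Myl3 differed by 0.34, Ryr2 by 0.21, Tnni3 by 0.18 and Mybpc3 by 0.03. Fat cells also make Lpl, Cd36 and Fabp4. Of 6 tested adipocyte markers 1 rose and 0 fell by limma's adjusted p, with a median of 0.94. At limma's unadjusted p under 0.05, 2 rose and 0 fell. The 1 riser by adjusted p was Retn, whose 2 readings at day 7 did not exceed background (difference of at least 1.32). Of 3 tested airway markers 0 passed by limma's adjusted p (0 also at an unadjusted p under 0.05), and the summed level of all 6 measured was 13.36 on the PBS array of day 7 and 6.85 to 7.48 on the other 3 arrays. Of 2 tested erythroid markers 1 fell, Alas2 (-2.09). The part of these cell types in the differences of Lpl, Cd36, Fabp4, Fabp5 and Gpihbp1 was not tested.

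The second question was how the genes differed between the Tbx6 vector and PBS. Slc27a1 was the 1 gene of the 8 at least 1.5-fold apart on either day, and it was higher after Tbx6 on both. By limma 0 of the 8 passed for injection, as did 0% of all tested genes, and at an unadjusted p under 0.05 the counts were 1 of 8 and 421 of 9753. With 1 array on each side, a difference within a day has no replicate check.

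Slc27a1 was higher after Tbx6 by 0.80 at day 7 and by 0.70 at day 30, which is 1.74-fold and 1.63-fold. At day 7, 7.23% of tested genes were at least 1.5-fold higher after Tbx6 and 8.41% lower, and at day 30 7.13% were higher and 6.06% lower. Both days together hold 0.748% of tested genes (73) with higher readings of that size. Over both days Slc27a1 differed by 0.75 (SE 0.24, adjusted p of 1 by limma, unadjusted p of 0.0135), higher in 2 of 2 pairs of arrays. Under the 4 other settings that give a test its adjusted p lay between 0.997 and 1.

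The lipolysis genes stood closer together. Lpl differed by -0.40 at day 7 and by -0.07 at day 30, Gpihbp1 by -0.46 and 0.03, and Vldlr by -0.26 and 0.07. For each of these the day 7 difference was the wider one, with the PBS array high. Angptl4 differed by 0.17 at day 7 and by at least 0.34 at day 30, where the PBS reading was at background. Cd36 differed by 0.08 and -0.01, Fabp4 by -0.04 and 0.24, and Fabp5 by 0.07 and -0.34. Apart from Slc27a1, each of these differences is under 1.5-fold on the deposited values. The median absolute difference over the 8 genes was 0.22 at day 7 and 0.16 at day 30, and over all tested genes 0.26 and 0.24.

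**Figure D4:**
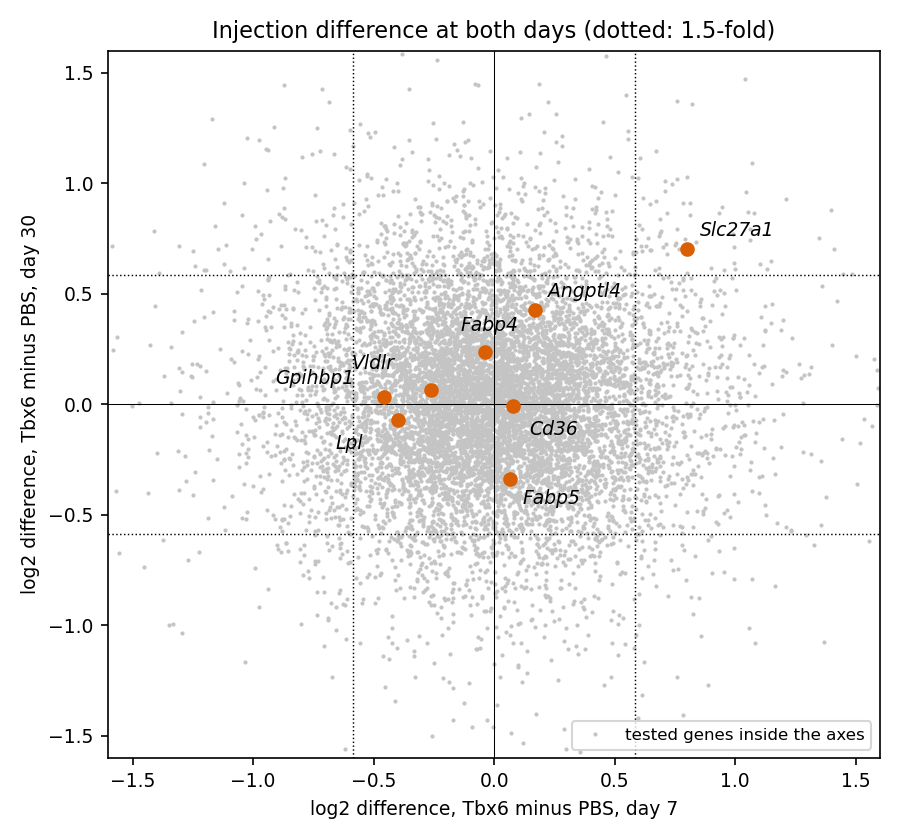
Log2 difference between the Tbx6 vector and PBS at day 7 (horizontal) and day 30 (vertical), as deposited. Grey points are tested genes within the axes, orange points the 8 genes, and dotted lines mark 1.5-fold. Slc27a1 (0.80 and 0.70) lies beyond the lines on both days, and the other 7 lie inside them, with Angptl4 drawn at its deposited reading although its PBS value at day 30 was at background.

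Of 6 tested adipocyte markers 4 were at least 1.5-fold lower after Tbx6 at day 7 and 5 at least 1.5-fold higher at day 30, on the deposited values. Over all tested genes the shares were 8.41% lower at day 7 and 7.13% higher at day 30. Adipoq, Cidec, Car3 and Ucp1 were in both counts. Summed over all 9 measured on the linear scale, the log2 level after PBS was 12.90 at day 7 and 11.83 at day 30. After Tbx6 it was 10.59 and 13.33. Single genes weighed heavily in it, with Car3 at 11.53 (PBS) and 13.01 (Tbx6) at day 30 and Ucp1 at 11.92 (PBS) at day 7. Adipoq, the adiponectin gene, differed by -1.91 and 2.33, and Retn did not exceed background at day 7 after either injection, while Plin1, Lep and Adig were at background on all arrays. Lipe, the hormone-sensitive lipase of fat cells, read 8.64 (PBS) and 9.92 (Tbx6) at day 30, a difference of 1.28. At day 7 it read 8.41 (PBS) and 8.28 (Tbx6), a difference of -0.13. Lpl, Cd36 and Fabp4, which fat cells also make, stayed within 0.40 between injections. They read 14.83 to 17.30, far above Adipoq (6.08 to 9.83) and Car3 (9.30 to 13.01), and this gap in level was not allowed for. Ucp1, a brown fat gene, differed by -4.32 at day 7 and by at least 2.29 at day 30, where its PBS reading was at background. Cidea, a droplet protein gene of brown fat, did not reverse and was higher after Tbx6 on both days, by 0.53 and 0.62. Airway markers were above background for 4 of 6 genes on the PBS array of day 7, 0 on the Tbx6 array of day 7 and the PBS array of day 30, and 1 on the Tbx6 array of day 30. The part of fat or airway tissue in the differences of the 8 genes was not tested.

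Of the other pathway genes, the day 7 differences of at least 1.5-fold with both readings above background were Dbi (0.84) and Pnpla2 (0.73), higher after Tbx6, and Agpat2 (-1.25), Aplnr (-0.67) and Meox2 (-0.61), lower. At day 30 they were Lipe and Meox2 (0.67), both higher. Meox2 thus differed in opposite directions on the 2 days, and Pnpla2 was also higher at day 30, by 0.42.

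Promoter sequence is shown for Slc27a1, which rose between days and was at least 1.5-fold higher after Tbx6 on both, and for Cd36, whose window held the single motif match. RefSeq windows (GRCm38.p6) from 250 bases before to 50 after an annotated start were at hand for 5 of the 10 genes, Fabp3, Cd36, Acsl1, Slc27a1 and Vldlr, in 9 windows. They were searched on both strands for AGGTCA, the half-site of nuclear receptors such as the PPARs, for AGGTGT, the core of T-box sites, and for AGGNCA repeated in the same direction 1 base apart, the layout of a PPAR element, which overlaps the first motif. AGGTCA was in 16.3% of 32851 windows, AGGTGT in 13.7% and the repeat in 0.381%. Of the 9 windows, the Cd36 window held AGGTCA 1 time, on the reverse strand and starting 228 bases before that window's annotated start. No other match was found. The window lies inside the span of Cd36 (chr5:17781690-17888959), so its start is not the outer end of the gene. The 3 annotated Slc27a1 windows held none of these motifs. Capitals mark the match.
Cd36, chr5:17835847-17836146, minus strand: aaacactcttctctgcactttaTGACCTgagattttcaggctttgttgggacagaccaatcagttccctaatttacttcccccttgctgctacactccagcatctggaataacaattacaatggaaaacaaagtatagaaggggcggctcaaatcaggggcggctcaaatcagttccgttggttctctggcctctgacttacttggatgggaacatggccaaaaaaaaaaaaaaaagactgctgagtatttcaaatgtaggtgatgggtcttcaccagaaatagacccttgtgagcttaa
Slc27a1, chr8:71568621-71568920, plus strand: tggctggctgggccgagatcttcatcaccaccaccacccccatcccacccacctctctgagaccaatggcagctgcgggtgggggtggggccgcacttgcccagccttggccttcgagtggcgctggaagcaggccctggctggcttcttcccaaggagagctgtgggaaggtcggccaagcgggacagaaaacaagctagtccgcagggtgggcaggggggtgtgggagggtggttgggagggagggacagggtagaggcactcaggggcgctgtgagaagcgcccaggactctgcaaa
Slc27a1, chr8:71569347-71569646, plus strand: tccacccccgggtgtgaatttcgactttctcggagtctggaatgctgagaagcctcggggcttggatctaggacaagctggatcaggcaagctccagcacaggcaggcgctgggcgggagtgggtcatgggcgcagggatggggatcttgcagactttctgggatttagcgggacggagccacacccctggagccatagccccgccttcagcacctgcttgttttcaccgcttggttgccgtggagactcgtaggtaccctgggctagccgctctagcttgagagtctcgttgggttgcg
Slc27a1, chr8:71570344-71570643, plus strand: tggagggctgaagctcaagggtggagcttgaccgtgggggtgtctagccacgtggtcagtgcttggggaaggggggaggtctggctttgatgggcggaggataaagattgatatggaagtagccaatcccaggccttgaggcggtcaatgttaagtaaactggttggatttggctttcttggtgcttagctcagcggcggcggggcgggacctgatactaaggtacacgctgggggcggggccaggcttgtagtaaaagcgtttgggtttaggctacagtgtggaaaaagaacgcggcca
A match is a description of letters and not of a bound site, and which start the heart uses was not measured.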

How the data were processed

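Heart RNA of 4 samples, 1 array per combination of injection and day, was measured on Clariom S arrays. The authors made the deposited log2 values by SST-RMA (per the labels) in Affymetrix Expression Console 1.4 (per the submitters' processing notes); the labels do not write the log base, which was read from the values. Of 28846 probe sets, 19572 carried 1 gene symbol in the platform annotation, and the probe set with the highest mean was kept for 55 genes with several. Genes whose mean reached the median over all genes (5.30) were tested. Differences were computed on the deposited values. An additive model with injection and day was fitted to 9753 genes with limma 3.58.1 (lmFit, eBayes, two-sided, Benjamini-Hochberg adjustment) in R 4.3.3; it leaves 1 residual degree of freedom and cannot test whether the injection effect differed between days. The step was tested on simulated data. Tables and plots used Python 3.11.15, pandas 2.3.3 and matplotlib 3.10.9. Marker sums are log2 of summed linear values. Members and lists were chosen with earlier results of these data known. The rule for names took all members, the 5 largest tested day changes per direction among the other pathway genes, and the 5 largest injection differences per direction and day. Genes named beyond it, such as those behind small counts, were chosen after their values were seen. Alternatives were quantile normalisation, no filter, averaged probe sets, a variance trend, no injection term, each array left out and a 2-fold rule.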

Additional observations from a re-analysis of the deposited data

How the results depend on the processing

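With all arrays, 4 members and 2562 genes were called between days with the injection term, and 3 and 2549 without it. With 1 array left out and no injection term, the counts were 3 to 4 members and 1248 to 2067 genes. The count of genes was 1402 without the PBS array of day 30 and 1248 without the Tbx6 array of day 30. The calls of Lpl, Angptl4 and Fabp5 held under all 9 alternatives run for them, with log2 changes of 2.004 to 2.44, -1.75 to -1.32 and -1.70 to -1.36. Slc27a1 did not keep its call, as given with its values. Each member with a value had 1 probe set, so averaging probe sets could not change it, between days or for injection. Without the filter, with the variance trend or without the injection term, the members' log2 changes between days also stayed the same and only the test moved. With 1 array left out, the uncalled Vldlr ran from -0.25 to 0.0107, above 0 without the PBS array of day 7. No member passed for injection in any of 32 alternative results with a test. A 2-fold rule left 0 members for injection at day 7 and 0 at day 30, where 1.5-fold left 1 each. Readings near the highest value of the table limit what can be seen of Fabp3, and readings near background limit Angptl4.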
